A study of Homo sapiens with 18 samples.

Results

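The HOX cluster genes were followed across the 6 groups of the series. The members were all genes whose symbol is HOXA, HOXB, HOXC or HOXD followed by digits only, without the antisense transcripts and without 1 HOXB gene. They numbered 38 of the 60675 genes listed, and 43853 of those were detected with 1 or more read pairs somewhere in the series. There were 11 members in HOXA, 9 in HOXB, 9 in HOXC and 9 in HOXD. The members were chosen by name and not by any measured value.

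HOX genes encode homeodomain transcription factors that assign position along the body axis. They lie in clusters in which the order of the genes along the chromosome follows the order in which they are expressed from head to tail, and genes at the same place in different clusters form a paralog group. Group 9 and above, the posterior genes, pattern the hindgut and urogenital tract, where the prostate forms. In cells the clusters are held silent by Polycomb repression and kept active by Trithorax complexes, and HOX proteins bind DNA with TALE homeodomain cofactors of the PBX, MEIS and PKNOX families.

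RNA-seq was performed on LNCaP, a prostate cancer line from a lymph node metastasis that depends on androgen, and on C4-2, its androgen-independent derivative. Cells were kept in hormone-depleted medium and sampled after 72 h. Each line had 3 groups of 3 libraries: nontargeting siRNA (siScr) with vehicle, siScr with the synthetic androgen R1881 at 1 nM, and R1881 at 1 nM with siRNA pools that target KDM1A together with KDM7A, called here dual knockdown. KDM1A and KDM7A are histone demethylases, and KDM1A acts on methylated H3K4. Every group is 1 established line, so a line is represented by 1 source of cells, and the labels do not say whether the 3 libraries came from separate cultures. P-values then measure the spread between these libraries, which may be technical. The 3 C4-2 vehicle libraries carry C4-2 in the title and LNCaP in the cell line field, and were grouped by title.

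Totals per library ranged from 3182604 to 20154243 read pairs assigned to genes, with a median of 18117641. The lowest was a C4-2 vehicle library (replicate 3), followed by LNCaP vehicle replicate 1 with 10485096. The HOX members together took 0.00520% to 0.0190% of the counts of a library, so many members were measured on few reads. All 8 luminal prostate markers in the list checked, with KLK2, KLK3, TMPRSS2, FOXA1, KRT8 and KRT18 among them, were above 1 CPM, counts scaled to library size, in every group. Of 18 markers of basal, neuroendocrine, stromal, endothelial and blood cells, those above 1 CPM in any group were COL1A1, COL3A1, VWF, SYP, KRT14 and PTPRC, and the summed leukocyte markers were 1.89 to 3.57 CPM in C4-2 vehicle against at most 0.739 CPM in any other library. The part of these cells or genes in the HOX differences was not tested. KDM1A fell under dual knockdown in LNCaP (log2FC = -1.05 ± 0.063 SE, adjusted p = 1.42e-07) and in C4-2 (log2FC = -3.12 ± 0.11 SE, adjusted p = 9.78e-10). KDM7A fell likewise, by 0.93 on the log2 scale in LNCaP and by 2.51 in C4-2.

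On the GRCh38 assembly the HOXA members from HOXA2 to HOXA13 span chr7:27100354-27200106 on the minus strand. The HOXB members described here span chr17:48528526-48633572 on the minus strand and HOXC spans chr12:53938765-54056030 on the plus strand. HOXD spans chr2:176092891-176190907 on the plus strand. The windows around transcription starts below are from RefSeq (GRCh38.p14), run from 250 bases before the start to 50 bases after it, and are printed 5′ to 3′ on the strand of the gene. They are shown because they belong to members that the comparisons below turn on. These are HOXA10, which rose under dual knockdown in C4-2, and its neighbour HOXA9, which was lower in C4-2. HOXC4, which fell with R1881 in LNCaP, is shown as well. HOXC5 shares the HOXC4 window by symbol, but the HOXC5 gene counted here starts at chr12:54032853, outside that window. The fall of HOXC5 with R1881 in LNCaP came with overlapping libraries. Capitals mark AGAACA, a half-site of steroid hormone response elements, or its reverse complement TGTTCT, and TATAAA, the TATA element, or its reverse complement TTTATA.
HOXA10, chr7:27179812-27180111, minus strand: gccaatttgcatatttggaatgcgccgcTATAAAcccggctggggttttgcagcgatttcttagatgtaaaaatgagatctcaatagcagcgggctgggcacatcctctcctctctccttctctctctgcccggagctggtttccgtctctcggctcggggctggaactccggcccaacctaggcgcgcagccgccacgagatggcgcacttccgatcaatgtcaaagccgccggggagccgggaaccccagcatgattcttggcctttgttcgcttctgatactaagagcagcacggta
HOXA10, second start, chr7:27174271-27174570, minus strand: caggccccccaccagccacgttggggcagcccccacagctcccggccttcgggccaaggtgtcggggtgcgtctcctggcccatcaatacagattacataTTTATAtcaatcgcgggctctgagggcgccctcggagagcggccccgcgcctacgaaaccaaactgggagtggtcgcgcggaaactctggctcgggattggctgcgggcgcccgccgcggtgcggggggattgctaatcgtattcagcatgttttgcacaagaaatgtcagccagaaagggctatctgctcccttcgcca
HOXA9, chr7:27165488-27165787, minus strand: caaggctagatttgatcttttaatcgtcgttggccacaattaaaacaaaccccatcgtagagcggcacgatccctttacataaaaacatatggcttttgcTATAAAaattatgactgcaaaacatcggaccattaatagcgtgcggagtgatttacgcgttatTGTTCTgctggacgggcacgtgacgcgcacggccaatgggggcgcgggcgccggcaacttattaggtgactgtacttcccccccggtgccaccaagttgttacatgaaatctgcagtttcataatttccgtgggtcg
HOXC4 and HOXC5, chr12:54016638-54016937, plus strand: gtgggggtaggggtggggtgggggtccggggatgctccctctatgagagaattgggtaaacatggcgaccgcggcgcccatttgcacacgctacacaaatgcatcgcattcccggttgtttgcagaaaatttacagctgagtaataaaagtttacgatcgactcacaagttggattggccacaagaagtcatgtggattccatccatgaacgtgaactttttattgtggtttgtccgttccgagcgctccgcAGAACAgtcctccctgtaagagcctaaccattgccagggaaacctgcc

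Windows were found for 20 of the 38 members, 26 distinct windows in all. None was found for HOXC9, HOXC12 or HOXC13, which also fell with R1881. AGAACA on either strand was present in 4 of the 26 (15.4%), against 14.8% of all 35116 windows in the table. The window shared by HOXC4 and HOXC5 holds it with its first base at position 3 of the transcript, and HOXA9 holds TGTTCT at position -87. One of the 7 HOXA3 windows and that of HOXA11 hold it too. TATAAA on either strand was in 5 of the 26 (19.2%) against 11.5% of all windows, and both HOXA10 windows and the HOXA9 window have it. A match of these letters is a description of the window and not evidence of binding.

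Levels within a group were compared per length, as RPKM, the CPM divided by the exonic length in kilobases. HOXC6 had the highest level, with a mean RPKM of 8.98 over the 18 libraries, followed by HOXC13 at 6.02, HOXA10 at 3.74 and HOXB7 at 3.05. HOXC carried most of the HOX signal, with a summed RPKM of 22.3 ± 1.75 (SD, n = 3) in LNCaP vehicle and 42.9 ± 5.02 in C4-2 vehicle. These sums were 64.8% and 65.1% of the summed HOX level in those groups.

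At the other end, HOXB1 and HOXD3 had no count in any library, and HOXD12 and HOXD1 had 1 and 2 counts in all. The 2 highest HOXD members were HOXD13, at a mean RPKM of 0.474 over the 18 libraries, and HOXD10 at 0.130. A mean of 1 CPM or more was reached by 13 members in LNCaP vehicle and by 19 in C4-2 vehicle, and by 11 and 17 with R1881. Several members share exons with other annotated genes, so part of their reads was left uncounted: the exonic bases free of such overlap are 19.5% in HOXD4, 27.0% in HOXD3, 37.5% in HOXA7, 40.1% in HOXC5, 42.6% in HOXD1 and 52.7% in HOXA4.

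The first comparison asked how the HOX clusters differ between the androgen-independent line and its parent. Without androgen, 14 members were higher and 2 lower in C4-2 than in LNCaP among the 25 with enough counts to test, where a call needs an adjusted p under 0.05 and at least a 2-fold change. In the same comparison 24.2% of all 18684 genes tested were called, 11.1% higher and 13.1% lower. Libraries of the lines did not overlap for 16 members tested that were higher and 3 that were lower, against 28.9% and 32.1% of all genes, and the adjusted p alone was passed by 16 higher and 4 lower, against 29.4% and 29.5% (58.9% in all). With R1881 in both lines 11 members were higher and 4 lower, against 23.8% of all genes called, 10.8% higher and 13% lower. There 16 members tested were separated upwards and 4 downwards, against 32.5% and 32.4% of all genes, and the adjusted p alone was passed by 15 higher and 4 lower, against 28.6% and 29.7% (58.3% in all). The median log2FC of the members tested was 1.16 with vehicle and 1.07 with R1881, and the median of all genes tested was -0.01 in both. Placing HOXD10 in vehicle at its lower bound left the median at 1.16. In bulk RNA a difference in level cannot be told apart from a difference in how many cells express the gene.

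By cluster, the differences ran in opposite directions. The summed HOXB level was 3.04-fold higher in C4-2 with vehicle and 2.81-fold with R1881, HOXC was 1.92-fold and 2.02-fold higher, and HOXA 1.53-fold and 2.12-fold. HOXD was lower, at 0.479 of the LNCaP level with vehicle and 0.316 with R1881. In HOXA, HOXB and HOXC the libraries of the lines did not overlap under either treatment. The HOXD sums overlapped with vehicle, where LNCaP libraries had 0.333, 1.74 and 1.97 RPKM and C4-2 libraries 0.829, 0.644 and 0.465. With R1881 the HOXD sums did not overlap, at 1.24, 1.04 and 0.693 RPKM in LNCaP and 0.123, 0.376 and 0.44 in C4-2.

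**Figure D1:**
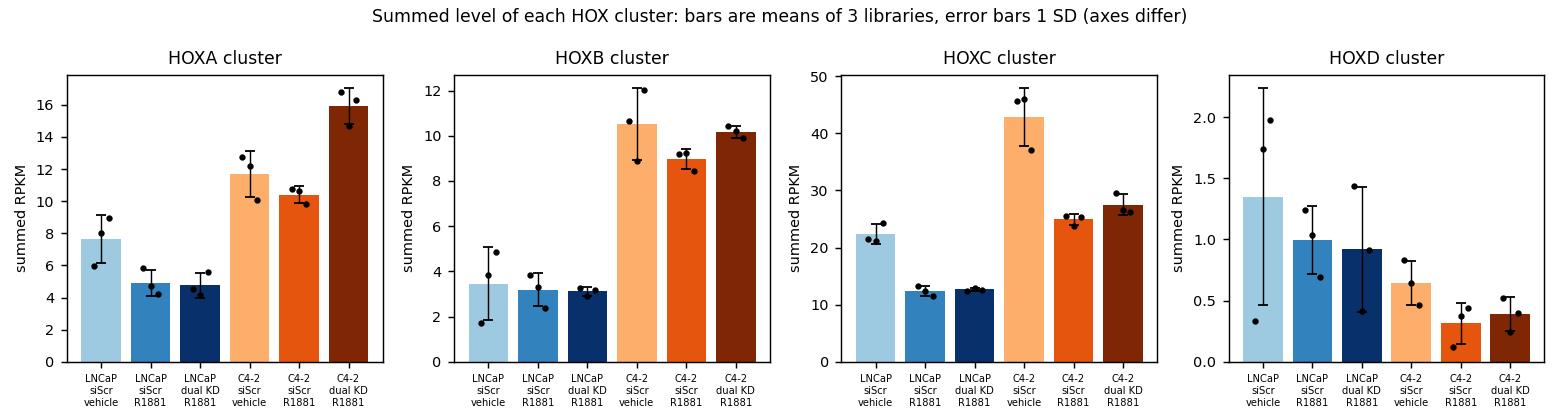
Summed RPKM of the members of each cluster (y axis) in the 6 groups, as means of 3 libraries with 1 SD and each library as a point. HOXA, HOXB and HOXC are higher in C4-2, and HOXD is lower, with a wide spread in LNCaP vehicle.

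The difference also varied with position within the cluster. In paralog groups 4 to 8 the summed level was 10.2 ± 1.26 RPKM in LNCaP and 28.7 ± 0.97 in C4-2 with R1881, and in groups 9 to 13 it was 10.4 ± 1.53 and 14.5 ± 0.581. In HOXB groups 4 to 8 were at 0.998 ± 0.402 and 7.88 ± 0.562 RPKM, whereas groups 9 to 13, here HOXB9 alone, were at 2.05 ± 0.555 and 0.799 ± 0.0516. Most of the C4-2 sum of HOXB groups 4 to 8 was HOXB7, at 6.66, 5.88 and 5.60 RPKM in the R1881 libraries. With vehicle the C4-2 to LNCaP ratios over all clusters were 1.85 for groups 1 to 3, 2.19 for groups 4 to 8 and 1.66 for groups 9 to 13, and with R1881 they were 1.66, 2.82 and 1.39. The clusters did not share 1 order. In HOXB the vehicle ratios were 2.21, 6.77 and 0.631 in the same order of groups, and the last of these overlapped. In HOXC groups 4 to 8 had the smaller ratio with vehicle, 1.60 against 2.25 for groups 9 to 13, and with R1881 the values were 2.03 and 2.00. These sums are descriptions and were not tested.

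HOXB7, a central HOX gene with known roles in proliferation of tumour cells, was higher in C4-2 under both treatments. It had 0.0865, 0.454 and 0.868 CPM in the LNCaP vehicle libraries and 9.23, 7.13 and 10.0 in C4-2 vehicle (log2FC = 4.05 ± 0.38 SE, adjusted p = 6.54e-09). With R1881 it had 0.11, 0.575 and 0.231 CPM in LNCaP and 10.2, 8.98 and 8.55 in C4-2 (log2FC = 4.96 ± 0.41 SE, adjusted p = 8.42e-10). Every C4-2 library lay above every LNCaP library, as it did under dual knockdown, where LNCaP had 0.321, 0.0539 and 0.375 CPM and C4-2 9.49, 8.9 and 8.28.

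HOXB3 to HOXB6 were also higher in C4-2, at lower levels. HOXB8, next to HOXB7, had too few reads for the test, with 14 counts in LNCaP vehicle and 3 in C4-2 vehicle, and 10 and 2 with R1881, and its libraries overlapped. HOXB5 had 0.173, 0.818 and 1.25 CPM in LNCaP vehicle and 2.47, 2.01 and 4.6 in C4-2 vehicle (log2FC = 1.79 ± 0.53 SE, adjusted p = 0.00656), and 0.495, 0.575 and 0.173 against 1.16, 2.5 and 0.985 with R1881 (log2FC = 1.89 ± 0.58 SE, adjusted p = 0.00809). HOXB4 had 0, 0.136 and 0.326 CPM in LNCaP vehicle and 0.577, 0.518 and 0.541 in C4-2 vehicle (log2FC = 1.63 ± 0.64 SE, adjusted p = 0.033). With R1881 HOXB4 had 0.055, 0.144 and 0.0578 against 0.495, 0.341 and 0.492 CPM (log2FC = 2.33 ± 0.72 SE, adjusted p = 0.00849). The libraries of the lines did not overlap for either gene. HOXB4 was measured on few reads and its vehicle call was lost in 16 of 24 alternative analyses (adjusted p 0.0162 to 0.138). The R1881 call of HOXB5 was lost without LNCaP R1881 replicate 3 or without C4-2 R1881 replicate 2 (adjusted p = 0.0591 and 0.085, range 0.000143 to 0.085 over 26 alternatives), and that of HOXB4 without LNCaP R1881 replicate 1 or 3 (0.0601 and 0.0575, range 0.00498 to 0.0601 over 24). HOXB3 was called higher under both treatments (log2FC = 1.43 and 1.61). HOXB6 was called higher with vehicle only, at 1.52, and its value with R1881 was 0.99, which passed 2-fold in 5 alternatives. These included leaving out LNCaP R1881 replicate 1 or 2 or C4-2 R1881 replicate 1 (log2FC = 1.16, 1.08 and 1.045). Over 27 alternatives the R1881 log2FC of HOXB6 ranged from 0.059 to 1.16 (adjusted p 0.00129 to 0.941), so the difference was lost in some.

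HOXB9, the most posterior HOXB gene described here, went the other way. It had 6.93, 4.67 and 4.28 CPM in LNCaP with R1881 and 1.98, 1.99 and 2.21 in C4-2 (log2FC = -1.37 ± 0.26 SE, adjusted p = 9.06e-05). With vehicle it had 2.94, 5.5 and 6.62 CPM in LNCaP and 3.36, 2.36 and 3.79 in C4-2, which overlapped (log2FC = -0.77 ± 0.26 SE, adjusted p = 0.0157) and did not reach 2-fold. LNCaP vehicle replicate 1 was the low LNCaP library, and without it the log2FC was -1.03 and the gene was called (adjusted p = 0.000622, range 0.000622 to 0.367 over 27 alternatives).

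**Figure D2:**
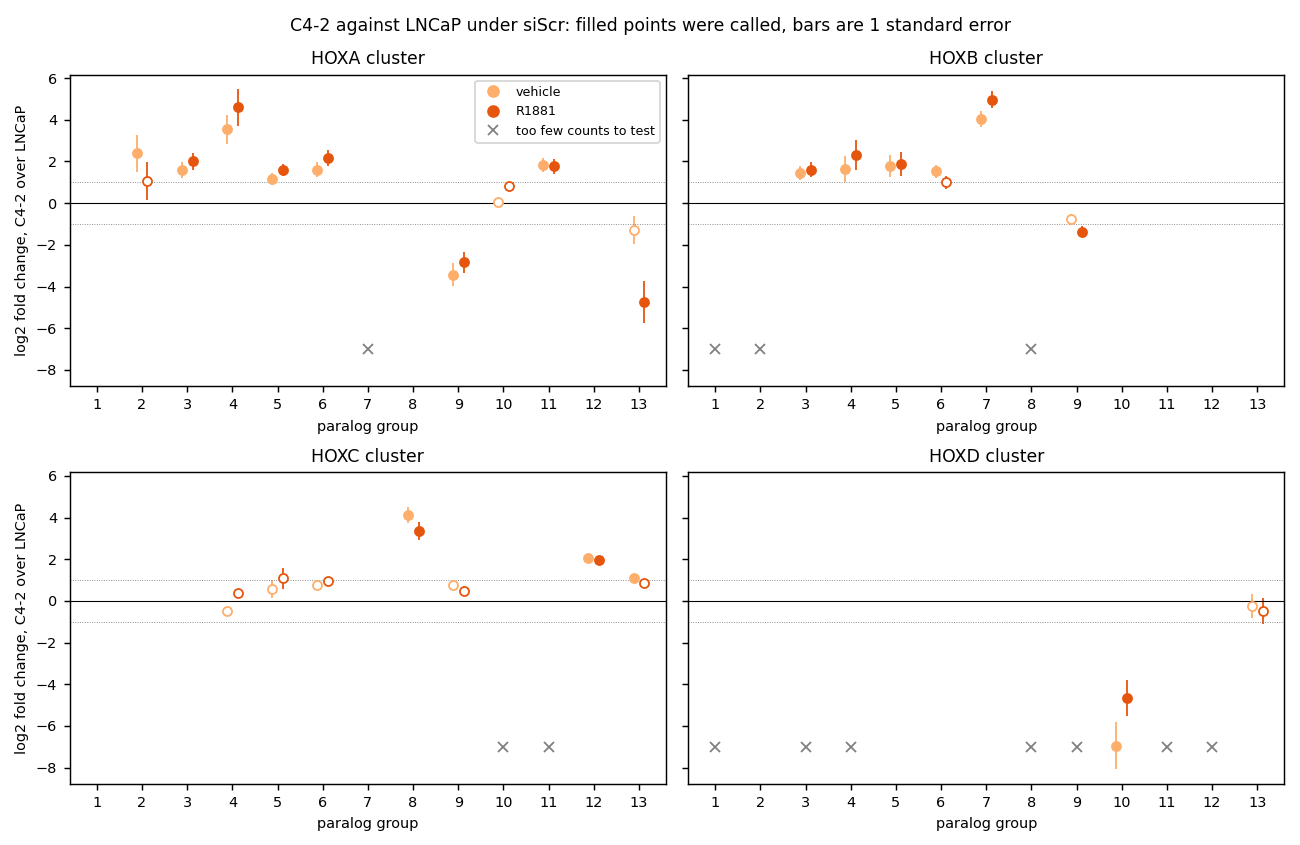
Log2 fold change of C4-2 over LNCaP (y axis) by paralog group (x axis) in the 4 clusters, with vehicle and with R1881, 1 standard error as bars and filled points for calls. HOXB3 to HOXB7, HOXA3 to HOXA6, HOXC8 and HOXC12 lie above 0, and HOXA9 and HOXD10 lie below it, while crosses mark members with too few counts to test.

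In HOXA, a run of anterior and central genes was higher in C4-2. HOXA4 had 0, 0.0909 and 0.108 CPM in LNCaP vehicle and 0.577, 1.32 and 1.08 in C4-2 vehicle (log2FC = 3.54 ± 0.71 SE, adjusted p = 1.98e-04). With R1881 it had 0, 0.0718 and 0 CPM in LNCaP, 1 count in all, and 0.33, 0.966 and 0.739 in C4-2, 35 counts, a ratio of 33.2 with an exact 95% interval of 5.59 to 1350 that covers counting error only (adjusted p = 1.37e-04). HOXA5, a central gene studied as a tumour suppressor in breast cancer, was the most abundant of the run. It had 1.56, 2.95 and 2.88 CPM in LNCaP vehicle and 6.14, 5.87 and 4.6 in C4-2 vehicle (log2FC = 1.16 ± 0.28 SE, adjusted p = 0.00112), and 2.53, 1.58 and 1.27 against 6.05, 4.55 and 5.85 with R1881 (log2FC = 1.59 ± 0.28 SE, adjusted p = 4.87e-05). The C4-2 libraries were above all LNCaP libraries for both genes. The vehicle call of HOXA5 was lost without LNCaP vehicle replicate 1 (log2FC = 0.95) and after thinning to the depth of the smallest library (log2FC = 0.71, adjusted p = 0.164).

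HOXA3 had 0.606, 0.545 and 1.14 CPM in LNCaP vehicle and 2.57, 2.47 and 1.62 in C4-2 vehicle (log2FC = 1.58 ± 0.38 SE, adjusted p = 0.00119), and 0.495, 0.503 and 0.173 against 1.32, 1.48 and 1.97 with R1881 (log2FC = 2.00 ± 0.42 SE, adjusted p = 2.99e-04). HOXA6 had 0.519, 0.591 and 0.814 against 2.36, 2.13 and 1.08 CPM with vehicle (log2FC = 1.61 ± 0.37 SE, adjusted p = 8.68e-04) and 0.66, 0.215 and 0.405 against 1.98, 2.5 and 1.54 with R1881 (log2FC = 2.17 ± 0.38 SE, adjusted p = 5.20e-05). Both were non-overlapping between the lines. HOXA2, an anterior gene of hindbrain and neural crest patterning, had 0, 0.136 and 0.163 CPM against 0.997, 0.288 and 0.541 with vehicle (log2FC = 2.39 ± 0.87 SE, adjusted p = 0.0231). Its call was lost when LNCaP vehicle replicate 1, LNCaP vehicle replicate 2 or C4-2 vehicle replicate 1 was left out (adjusted p 0.061, 0.0619 and 0.249, range 0.0109 to 0.249 over 24 alternatives). With R1881 HOXA2 had 0.055, 0.0718 and 0.289 CPM in LNCaP and 0.11, 0.625 and 0.185 in C4-2, which overlapped (log2FC = 1.07 ± 0.90 SE, adjusted p = 0.323).

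Further along the cluster the direction varied from gene to gene. HOXA9, a posterior gene best known from acute leukaemia, had 0.952, 2.41 and 2.93 CPM in LNCaP vehicle and 0.21, 0.23 and 0 in C4-2 vehicle (log2FC = -3.43 ± 0.55 SE, adjusted p = 1.41e-05). It had 2.09, 1.87 and 1.1 CPM in LNCaP and 0.275, 0.284 and 0.123 in C4-2 with R1881 (log2FC = -2.84 ± 0.50 SE, adjusted p = 4.68e-05). All C4-2 libraries were below all LNCaP libraries. HOXA10, next to it and active in development of the uterus and vas deferens, overlapped between the lines with vehicle, at 13.4, 13.9 and 14.7 CPM in LNCaP and 15.5, 14.6 and 12.4 in C4-2 (log2FC = 0.04 ± 0.11 SE, adjusted p = 0.77). With R1881 it was higher in C4-2, though under 2-fold (log2FC = 0.80 ± 0.11 SE, adjusted p = 1.72e-06).

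HOXA11, the next gene, was higher again in C4-2. It had 0.519, 0.727 and 1.19 CPM in LNCaP vehicle and 3.25, 2.76 and 2.98 in C4-2 vehicle (log2FC = 1.83 ± 0.34 SE, adjusted p = 8.68e-05), and 0.77, 0.144 and 0.405 against 1.65, 1.31 and 1.78 with R1881 (log2FC = 1.76 ± 0.37 SE, adjusted p = 3.42e-04). HOXA13, the end gene of the cluster, which patterns the digits and urogenital tract, had 0.77, 1.01 and 0.347 CPM in LNCaP with R1881 and 0, 0.0568 and 0 in C4-2 (adjusted p = 4.06e-04). These were 34 counts against 1, a ratio of 35.8 with an exact 95% interval of 6.01 to 1455. With vehicle HOXA13 had 0.0865, 0.863 and 0.922 against 0.315, 0.23 and 0.271 CPM, which overlapped through LNCaP vehicle replicate 1 (log2FC = -1.29 ± 0.69 SE, adjusted p = 0.119). Without that library it was called lower in C4-2 (log2FC = -1.71, adjusted p = 0.0254, range 0.0254 to 0.399 over 24 alternatives).

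Within HOXC the members called higher were HOXC8 and HOXC12, and with vehicle HOXC13. HOXC6 was also higher, under 2-fold, at a mean of 6.24 RPKM in LNCaP and 12.4 in C4-2 with R1881. HOXC8, a central gene of the thoracic region, had 0.0865, 0.409 and 0.543 CPM in LNCaP vehicle and 6.24, 8.8 and 4.06 in C4-2 vehicle (log2FC = 4.11 ± 0.39 SE, adjusted p = 8.26e-09). With R1881 it had 0.11, 0.359 and 0.289 against 2.92, 2.16 and 2.58 CPM (log2FC = 3.33 ± 0.43 SE, adjusted p = 9.48e-07). HOXC12 had 4.33, 4.54 and 6.35 CPM in LNCaP vehicle and 23.8, 22.8 and 17 in C4-2 vehicle (log2FC = 2.08 ± 0.17 SE, adjusted p = 1.22e-09). It had 1.98, 2.37 and 2.37 against 8.2, 8.64 and 9.6 CPM with R1881 (log2FC = 1.97 ± 0.19 SE, adjusted p = 1.39e-08). The lines were fully separated for both genes under both treatments.

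HOXC13, a regulator of hair keratin genes, had 13.5, 13.4 and 15.3 CPM in LNCaP vehicle and 33.4, 30.2 and 26.8 in C4-2 vehicle (log2FC = 1.11 ± 0.13 SE, adjusted p = 1.59e-07). The vehicle difference was under 2-fold with the GC trend removed, without and with the replicate block (log2FC = 0.93 and 0.92). With R1881 it differed by less than 2-fold (log2FC = 0.86 ± 0.14 SE, adjusted p = 1.27e-05). HOXC6, the most abundant member, had 22.7, 24 and 23.5 CPM in LNCaP vehicle and 41.4, 43.5 and 34.1 in C4-2 vehicle (log2FC = 0.78 ± 0.084 SE, adjusted p = 7.11e-08). It had 24.9, 20.3 and 21.2 against 43.6, 41.4 and 46.3 CPM with R1881 (log2FC = 0.97 ± 0.082 SE, adjusted p = 1.50e-09). The lines did not overlap for HOXC6, and the difference was just under 2-fold. With R1881 it passed 2-fold without LNCaP R1881 replicate 1 or C4-2 R1881 replicate 2 (log2FC = 1.06 and 1.015). HOXC9 was higher in C4-2 with vehicle, also under 2-fold (log2FC = 0.77), and HOXC4 was lower in C4-2 with vehicle by 0.46 on the log2 scale. HOXC5 passed with R1881 without LNCaP R1881 replicate 3 or C4-2 R1881 replicate 2 (adjusted p = 0.0176 and 0.0397, range 0.0176 to 0.227 over 25 alternatives). HOXC10 and HOXC11 had 99 and 42 counts over all libraries and were not tested.

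In HOXD, HOXD9 and HOXD10 were nearly absent from C4-2. HOXD10, a posterior gene of limb and spinal patterning, had 0.433, 1.04 and 1.14 CPM in LNCaP vehicle, 49 counts, and no count in C4-2 vehicle. At 3 counts as the limit that a count of 0 allows over the group, C4-2 vehicle was at least 12.6-fold lower. With R1881 it had 0.55, 0.575 and 0.867 CPM in LNCaP and 0, 0.0568 and 0 in C4-2, 33 counts against 1, a ratio of 34.8 with an exact 95% interval of 5.82 to 1414. HOXD10 was called lower in C4-2 under both treatments (adjusted p = 4.71e-05 and 1.69e-04).

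Its neighbour HOXD9 had too few reads for the test, with 37 counts over the 9 LNCaP libraries and 0 over the 9 C4-2 libraries, at least 11.6-fold lower over all groups. HOXD11 had 11 counts in LNCaP with R1881 and 0 in C4-2, at least 3.86-fold lower, but 14 against 7 with vehicle, where the libraries overlapped, and 5 against 4 under dual knockdown. HOXD13, the end gene of the cluster, was present in both lines. It had 0.0865, 2.04 and 2.33 CPM in LNCaP vehicle and 1.52, 1.38 and 0.811 in C4-2 vehicle (log2FC = -0.25 ± 0.57 SE, adjusted p = 0.733). With R1881 it had 1.32, 0.934 and 0.578 against 0.275, 0.795 and 0.985 CPM (log2FC = -0.49 ± 0.62 SE, adjusted p = 0.526). The groups overlapped, and LNCaP vehicle replicate 1 stood far below the other LNCaP vehicle libraries for this gene. HOXD1, HOXD4, HOXD8 and HOXD12 had 1 to 11 counts over all 18 libraries.

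**Figure D3:**
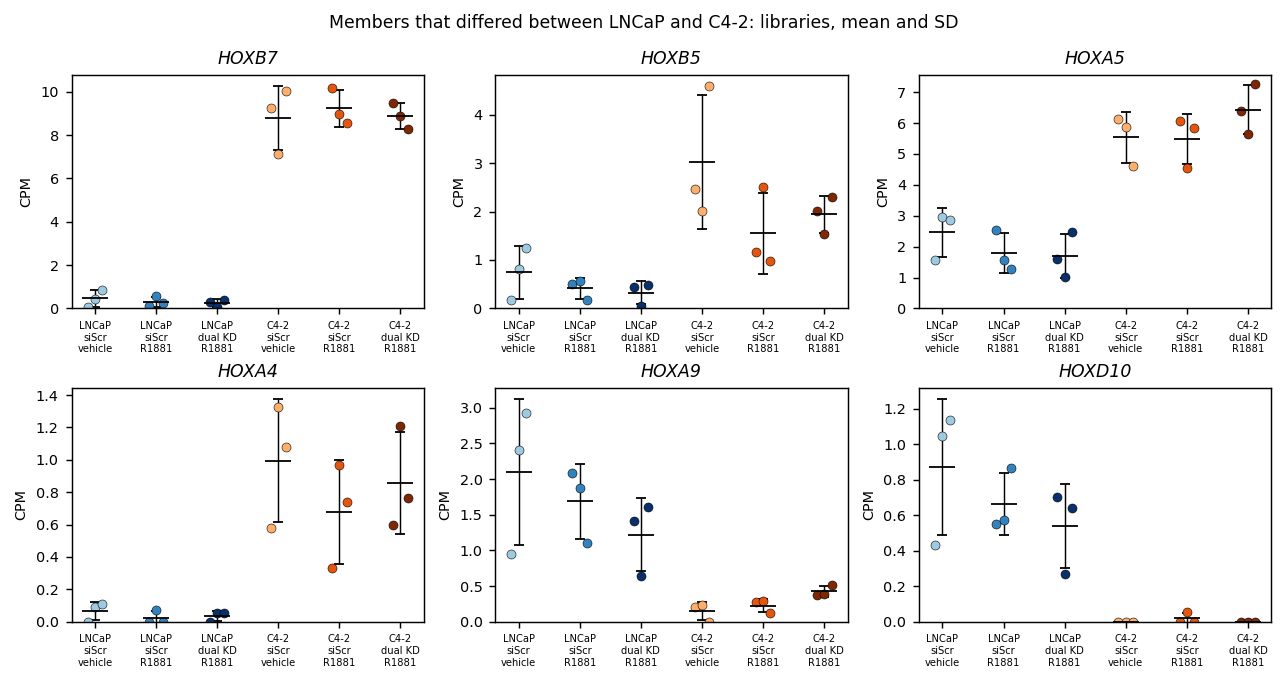
CPM (y axis) of HOXB7, HOXB5, HOXA5, HOXA4, HOXA9 and HOXD10 in the 3 libraries of each of the 6 groups (x axis), with the mean and 1 SD. HOXB7, HOXA4 and HOXA5 are high in all C4-2 groups, whereas HOXA9 and HOXD10 are near 0 there.

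Leaving out C4-2 vehicle replicate 3, the shallowest library, left 16 members called with vehicle, and all 16 were among those called with it. Without LNCaP vehicle replicate 1 there were 15, of which 13 were shared. The vehicle and R1881 comparisons use different libraries of the same lines. Antisense transcripts and genes beside the clusters were read from lists drawn up with earlier results of these data known. Of 18 antisense and intergenic RNAs 8 were tested, and 3 were called higher in C4-2 and none lower with vehicle, and likewise with R1881. HOXA-AS3 was at 0.435 CPM in LNCaP and 1.36 in C4-2 with R1881, HOXB-AS1 at 0.0992 and 0.52 and HOXB-AS3 at 0.37 and 0.944. Reads were counted without strand, so read pairs on bases that a member shares with an antisense partner could be left uncounted for both. The strand of the other read pairs is not known. HOXA-AS3 shares exonic bases with HOXA3, HOXA4, HOXA6 and HOXA7, HOXB-AS1 with HOXB2 and HOXB3, and HOXB-AS3 with HOXB3, HOXB5 and HOXB6.

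Of 13 flanking genes 12 were tested. SKAP1, beyond the anterior end of HOXB, had 0 counts in LNCaP vehicle and 33 in C4-2 vehicle, and 0 against 26 with R1881. PRAC1, a prostate and colon transcript on the posterior side of HOXB9, was lower in C4-2. It was at 55.4 ± 4.42 CPM in LNCaP vehicle and 8.61 ± 1.77 in C4-2 vehicle (SD, n = 3). Its log2FC was -2.65 ± 0.14 SE (adjusted p = 1.07e-12). Of these neighbours of HOXB members, SKAP1 was thus higher and PRAC1 lower in C4-2. TTLL6, also listed for HOXB, overlapped with vehicle, at 3.46, 4.54 and 4.50 CPM in LNCaP and 4.09, 5.00 and 3.79 in C4-2. EVX1, beyond the posterior end of HOXA, had 8 counts in LNCaP vehicle and 59 in C4-2 vehicle (log2FC = 3.08 ± 0.67 SE, adjusted p = 5.33e-04). With vehicle 2 flanking genes were called higher and 3 lower, and with R1881 2 higher and 1 lower.

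Among 9 TALE cofactors 8 were tested. PKNOX2 was lower in C4-2, at 15.2 ± 0.885 CPM in LNCaP vehicle against 3.45 ± 1.87 (SD, n = 3; log2FC = -1.97 ± 0.22 SE, adjusted p = 1.50e-07). PBX3 was higher in C4-2 with R1881, at 15.8 ± 0.255 against 31.9 ± 0.907 CPM (log2FC = 1.00 ± 0.084 SE, adjusted p = 1.27e-09). Of 29 regulators of the clusters 24 were tested, and 1 was called higher with vehicle and 2 with R1881. PDX1, a homeobox gene of pancreas and duodenum, had 0.401 CPM in LNCaP vehicle and 5.7 in C4-2 vehicle (log2FC = 3.82 ± 0.39 SE, adjusted p = 2.49e-08). BMI1, a Polycomb component, was higher in C4-2 with R1881 (log2FC = 1.04 ± 0.074 SE, adjusted p = 9.29e-11).

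The next comparison asked whether loss of KDM1A and KDM7A changed HOX expression in the presence of androgen. In C4-2, 2 of the 22 members tested were called higher and none lower, against 3.94% of all 16965 genes tested, 2.5% higher and 1.44% lower. With the adjusted p alone 7 members were higher and 1 lower, against 12.7% and 10.8% of all genes (23.5% in all). The median log2FC was 0.32 over the members tested and 0.01 over all genes. In LNCaP none of the 20 members tested was called by edgeR, against 0.286% of all 17162 genes, 0.157% higher and 0.128% lower. With the adjusted p alone none passed either, against 8.27% of all genes higher and 5.89% lower. DESeq2 called none either, and 2 members, HOXA13 and HOXC9, had an unadjusted p under 0.05. Libraries in LNCaP were separated upwards for 2 members tested and downwards for 1, against 17% and 17.2% of all genes.

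HOXA10 showed the clearest response. In C4-2 it had 13.8, 13 and 10.8 CPM with siScr and 28.5, 25.5 and 28.9 with dual knockdown (log2FC = 1.12 ± 0.11 SE, adjusted p = 1.02e-05). In LNCaP it had 7.43, 7.33 and 6.71 CPM with siScr and 7.96, 7.71 and 7.45 with dual knockdown (log2FC = 0.11 ± 0.12 SE, adjusted p = 0.59). The LNCaP libraries were also separated upwards, but the change was small and did not pass the test. All C4-2 knockdown libraries were above every other library of the series for this gene. The response differed between the lines by 1.04 ± 0.15 SE on the log2 scale (adjusted p = 0.000128). HOXA10 was the only member called for this difference among 25 tested, against 1.99% of all genes, 1.26% higher and 0.723% lower. By adjusted p alone it was also the 1 member that passed, against 6.97% higher and 3.88% lower. Without C4-2 siScr R1881 replicate 3, the lowest of its group, the difference was 0.94 and just under 2-fold. The knockdown itself was deeper in C4-2, with KDM1A at 15, 19.9 and 14.9 CPM against 49.1, 52.6 and 54.4 in LNCaP, and the part of this in the difference was not tested. Of the exonic bases of HOXA10 73.7% are free of overlap with HOXA10-AS and AC004080.3, and read pairs on the others could be left uncounted.

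HOXB9 was the other member called in C4-2. It had 1.98, 1.99 and 2.21 CPM with siScr and 4.18, 4.89 and 3.69 with dual knockdown (log2FC = 1.03 ± 0.23 SE, adjusted p = 0.00486). In LNCaP it had 6.93, 4.67 and 4.28 CPM with siScr and 5.46, 5.83 and 5.63 with dual knockdown (log2FC = 0.09 ± 0.23 SE, adjusted p = 0.852). The C4-2 groups did not overlap, and the knockdown libraries overlapped with C4-2 vehicle at 3.36, 2.36 and 3.79 CPM. The 2-fold limit was missed without C4-2 siScr R1881 replicate 2 or dual knockdown replicate 2 (log2FC = 0.9995 and 0.91), and the adjusted p was missed with counts thinned to the smallest library (log2FC = 1.14, adjusted p = 0.0656). The difference between the lines was 0.97 ± 0.35 SE and did not pass the test (adjusted p = 0.0804).

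Further members rose or fell in C4-2 by less than 2-fold. HOXA11 rose (log2FC = 0.80 ± 0.23 SE, adjusted p = 0.0189), from 1.65, 1.31 and 1.78 to 2.77, 2.75 and 2.86 CPM. In HOXC, HOXC8, HOXC9, HOXC12 and HOXC13 rose, by 0.73, 0.77, 0.41 and 0.36 on the log2 scale (adjusted p 0.0325, 0.009, 0.0323 and 0.0373). HOXC12 went from 8.2, 8.64 and 9.6 CPM to 13.4, 10.3 and 11.8, and HOXC13 from 13.7, 13.4 and 11.1 to 18, 16.6 and 14.7. HOXC4, at the opposite end of the cluster from HOXC13, fell (log2FC = -0.93 ± 0.20 SE, adjusted p = 0.00451), from 4.62, 3.41 and 4.55 CPM to 2.5, 2.25 and 1.91. The libraries were separated for each of these members. Of the 22 members tested in C4-2, 9 were separated upwards and 2 downwards, against 21.9% and 18.6% of all genes. HOXC4 passed 2-fold without C4-2 siScr R1881 replicate 2 or dual knockdown replicate 1 (log2FC = -1.06 and -1.01). Its adjusted p stayed at 0.0417 or less over 19 alternatives. The other rises did not pass the adjusted p in every alternative. The highest adjusted p was 0.0885 for HOXA11, 0.173 for HOXC8, 0.208 for HOXC9, 0.119 for HOXC12 and 0.183 for HOXC13.

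HOXB7, HOXC6 and HOXA5, all higher in C4-2 than in LNCaP, did not pass the test under dual knockdown. HOXB7 had 10.2, 8.98 and 8.55 CPM with siScr and 9.49, 8.9 and 8.28 with dual knockdown (log2FC = -0.07 ± 0.15 SE, adjusted p = 0.788). HOXC6 had 43.6, 41.4 and 46.3 and 40.4, 40.8 and 39.5 CPM (log2FC = -0.13 ± 0.087 SE, adjusted p = 0.295), and its libraries were separated downwards. HOXA5 had 6.05, 4.55 and 5.85 and 6.4, 5.66 and 7.26 CPM (log2FC = 0.22 ± 0.17 SE, adjusted p = 0.397). The 4 summed clusters in C4-2, compared without a test, also moved unequally, as HOXA went from 10.4 ± 0.521 to 15.9 ± 1.1 RPKM, a ratio of 1.53, and HOXB, HOXC and HOXD had ratios of 1.13, 1.10 and 1.24. Most of the HOXA change was HOXA10, which went from 3.38 ± 0.41 to 7.46 ± 0.50 RPKM. Under dual knockdown in LNCaP the ratios of the 4 sums were 0.970, 0.979, 1.02 and 0.928, and the libraries overlapped in each. By TPM in place of RPKM the HOXC ratio was 0.973. By position, the sums over all clusters in C4-2 had ratios of 0.957 for groups 1 to 3, 1.02 for groups 4 to 8 and 1.615 for groups 9 to 13, and the last did not overlap. In LNCaP these were 0.734, 0.963 and 1.06, of which the first did not overlap, and HOXB groups 1 to 3 were at 0.348 of the siScr level, also without overlap. That HOXB sum rests on few reads, as HOXB2 went from 7 counts to 1 and HOXB3 from 30 to 16. The HOXB3 libraries overlapped and HOXB3 was not called by edgeR (log2FC = -1.01 ± 0.52 SE, adjusted p = 0.212).

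In LNCaP, HOXA13 had 0.77, 1.01 and 0.347 CPM with siScr and 0.193, 0.0539 and 0.268 with dual knockdown (log2FC = -1.98 ± 0.70 SE, adjusted p = 0.0685). The libraries did not overlap, and the value passed the test without the filter on low counts or without LNCaP vehicle replicate 1 (adjusted p = 0.0245 and 0.0252, range 0.0245 to 0.242 over 16 alternatives). HOXC9 had 1.32, 1.65 and 1.56 CPM with siScr and 2.25, 3.07 and 2.2 with dual knockdown (log2FC = 0.74 ± 0.25 SE, adjusted p = 0.0594). HOXD10 and HOXD13, present in LNCaP, were at 0.706, 0.27 and 0.643 and 1.86, 0.593 and 1.34 CPM with dual knockdown, overlapping with LNCaP siScr R1881. No cofactor, regulator, antisense RNA or flanking gene on the lists was called by edgeR under dual knockdown in either line, and 17 of those tested in LNCaP and 16 in C4-2 had an unadjusted p under 0.05. Read against the shares of all genes given above, by adjusted p alone 3 of 8 TALE cofactors tested in LNCaP and 2 of 7 in C4-2 were lower and none higher. Of the regulators 2 were higher and 1 lower of 23 in LNCaP, and 1 each of 24 in C4-2. Of the flanking genes 2 were higher and 1 lower of 10 in LNCaP, and 2 each of 12 in C4-2. Of the antisense RNAs none of 4 passed in LNCaP, and 1 of 8 was higher in C4-2.

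**Figure D4:**
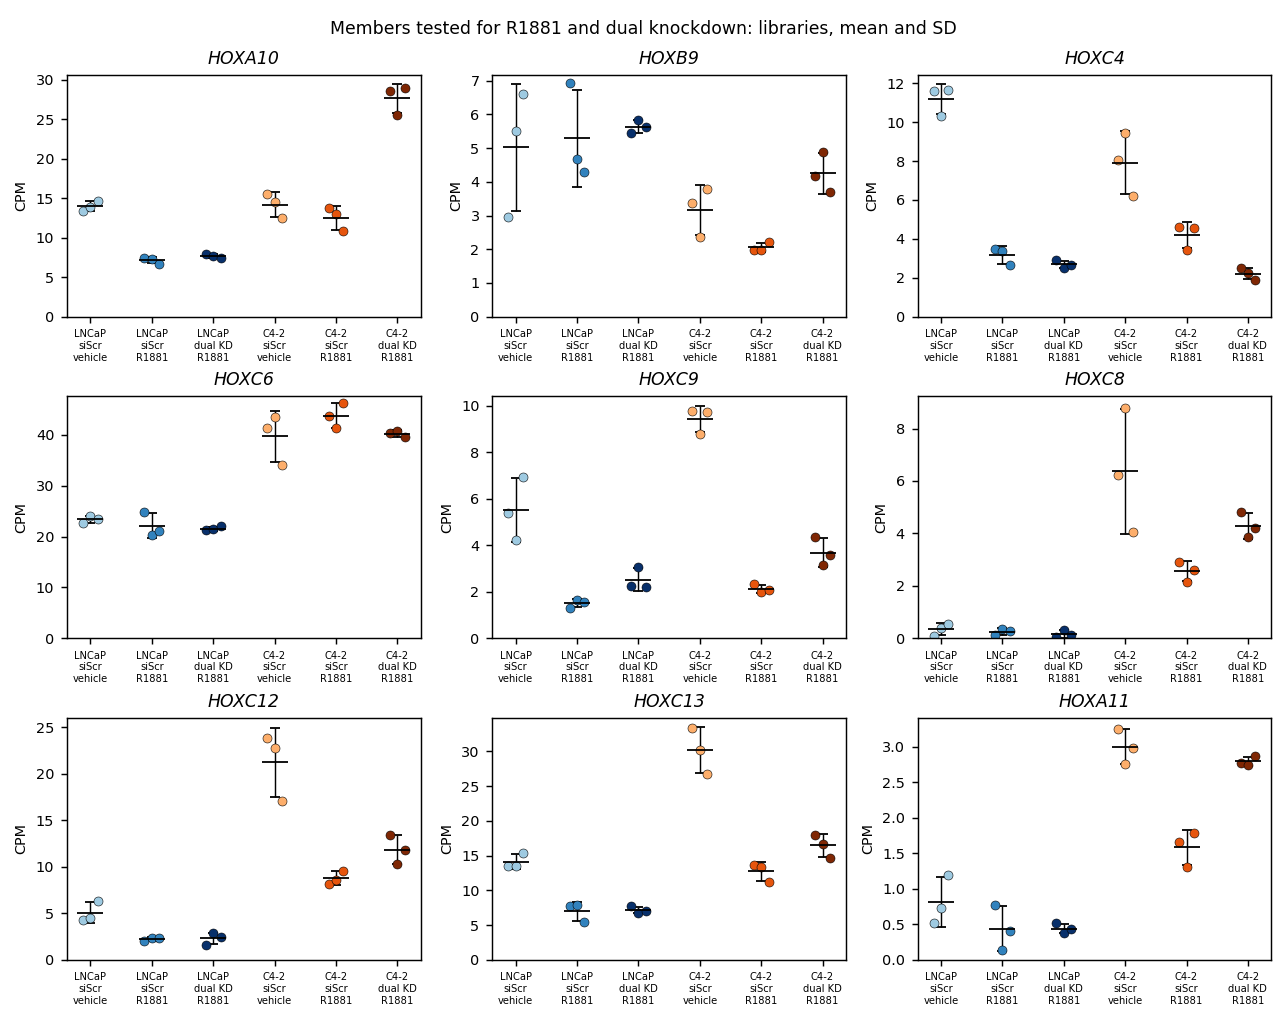
CPM (y axis) of 9 members in the 3 libraries of each group (x axis), with the mean and 1 SD. HOXA10 is highest in C4-2 with dual knockdown, HOXC9, HOXC12 and HOXC13 are lower with R1881 than with vehicle in both lines, and HOXC6 overlaps between vehicle and R1881.

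The last comparison asked how HOX genes responded to androgen. With R1881, 6 of 20 members tested in LNCaP were called lower and none higher, against 12.3% of all genes called, 5.68% higher and 6.62% lower. The adjusted p alone was passed by the same number, against 46.6% of all genes, 23.2% lower. In C4-2 4 of 22 were called lower and none higher, against 9.07% of all genes, 4.29% higher and 4.78% lower. With the adjusted p alone the C4-2 count was 8 lower and none higher, against 15.7% of all genes lower. The R1881 and dual knockdown comparisons of a line share its siScr R1881 libraries. HOXC held 5 of the 6 calls in LNCaP, where 6 HOXC members were tested, and all 4 in C4-2, where 7 were. The summed HOXC level went from 22.3 ± 1.75 to 12.4 ± 0.897 RPKM in LNCaP and from 42.9 ± 5.02 to 24.9 ± 0.999 in C4-2, ratios of 0.554 and 0.581, and libraries did not overlap in either line.

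HOXC9, a posterior gene of the trunk, fell the most among the members tested. It went from 5.36, 4.22 and 6.95 CPM with vehicle to 1.32, 1.65 and 1.56 with R1881 in LNCaP (log2FC = -1.90 ± 0.24 SE, adjusted p = 4.72e-06). In C4-2 it went from 9.76, 8.8 and 9.74 to 2.31, 1.99 and 2.09 CPM (log2FC = -2.17 ± 0.19 SE, adjusted p = 6.05e-07). HOXC12 fell from 4.33, 4.54 and 6.35 to 1.98, 2.37 and 2.37 CPM in LNCaP (log2FC = -1.22 ± 0.23 SE, adjusted p = 3.32e-04) and from 23.8, 22.8 and 17 to 8.2, 8.64 and 9.6 in C4-2 (log2FC = -1.33 ± 0.13 SE, adjusted p = 2.07e-06). For both genes the vehicle and R1881 libraries were separated in both lines.

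HOXC13 fell by 1.05 on the log2 scale in LNCaP, from 14.1 ± 1.09 to 6.99 ± 1.35 CPM (SD, n = 3), and by 1.29 in C4-2, from 30.1 ± 3.32 to 12.7 ± 1.39. HOXC8, which had few reads in LNCaP and was not tested there, fell in C4-2 from 6.24, 8.8 and 4.06 to 2.92, 2.16 and 2.58 CPM (log2FC = -1.41 ± 0.23 SE, adjusted p = 2.97e-04). HOXC5 fell in LNCaP (log2FC = -1.35 ± 0.50 SE, adjusted p = 0.0354) on 45 counts with vehicle and 17 with R1881, and its libraries overlapped. That call was lost in 7 of 15 alternatives (adjusted p 0.0167 to 0.134). HOXC6 had log2FC = -0.12 in LNCaP and 0.09 in C4-2 and did not pass the test in either line, although it lies between HOXC9 and HOXC4, whose adjusted p passed in both. HOXC13 missed 2-fold in LNCaP in 5 of 19 alternatives, among them those without vehicle replicate 3 or R1881 replicate 3 (log2FC = -0.9799 and -0.8762).

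HOXC4 fell from 11.6, 10.3 and 11.7 CPM with vehicle to 3.47, 3.38 and 2.66 with R1881 in LNCaP (log2FC = -1.85 ± 0.16 SE, adjusted p = 4.62e-08). In C4-2 it fell from 8.08, 9.43 and 6.22 to 4.62, 3.41 and 4.55 CPM, just under 2-fold (log2FC = -0.98 ± 0.19 SE, adjusted p = 0.00131). It passed 2-fold there in 6 of 19 alternatives, among them those without vehicle replicate 1 or 3 or without R1881 replicate 1 or 3. The response was smaller in C4-2 by 0.85 ± 0.24 SE on the log2 scale (adjusted p = 0.0188, range 0.00857 to 0.465 over 27 alternatives), under the 2-fold limit. HOXC6 and HOXC4 share exonic bases, and reads on those were not counted for either.

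HOXA10 fell with R1881 in LNCaP, from 13.4, 13.9 and 14.7 to 7.43, 7.33 and 6.71 CPM (log2FC = -1.003 ± 0.11 SE, adjusted p = 1.45e-06), at the 2-fold limit, which it missed in 13 of 19 alternatives (log2FC -1.10 to -0.94). In C4-2 it had 15.5, 14.6 and 12.4 CPM with vehicle and 13.8, 13 and 10.8 with R1881, which overlapped (log2FC = -0.23 ± 0.12 SE, adjusted p = 0.155). The difference between the lines was 0.76 ± 0.15 SE (adjusted p = 0.00136, range 0.000299 to 0.0397 over 27 alternatives). No member was called for this difference by edgeR, against 4.32% of all genes, 2% higher and 2.33% lower. By adjusted p alone 2 members passed, both higher, against 6.05% of all genes higher and 7.95% lower. DESeq2 called none, and 3 members, HOXA10, HOXA13 and HOXC4, had an unadjusted p under 0.05.

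In C4-2 the members that rose with dual knockdown and the members that fell with R1881 can be read side by side. HOXA11 was at 3 ± 0.247 CPM with vehicle, 1.58 ± 0.246 with R1881 and 2.79 ± 0.0632 with dual knockdown and R1881 (SD, n = 3). HOXC12 was at 21.2 ± 3.66, 8.81 ± 0.717 and 11.8 ± 1.56 CPM in the same order, and HOXC9 at 9.43 ± 0.547, 2.13 ± 0.165 and 3.68 ± 0.612. The knockdown levels of HOXC9 and HOXC12 lay between those of vehicle and R1881. HOXA10 went above its vehicle level, and HOXC4, at 7.91 ± 1.61, 4.2 ± 0.682 and 2.22 ± 0.294 CPM, fell in both steps.

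Of the HOXB members, none of the 4 tested in LNCaP was called with R1881. HOXB3 passed without LNCaP vehicle replicate 1 or R1881 replicate 2 (adjusted p = 0.0462 and 0.0455), and HOXA11 without LNCaP R1881 replicate 1 (0.0399). In C4-2 HOXB3 and HOXB6 fell by 0.76 and 0.63 on the log2 scale (adjusted p = 0.0423 and 0.0257), under 2-fold, and HOXB7 had a log2FC of 0.08. HOXD13 had log2FC = -0.78 in LNCaP and -0.99 in C4-2, without passing the test. In C4-2 the counts of calls included HOXB5 without R1881 replicate 2 and HOXA11 without vehicle replicate 2 or R1881 replicate 3. For HOXD13, leaving out LNCaP vehicle replicate 1 gave a LNCaP value of -1.22 and passed (adjusted p = 0.0123, range 0.0123 to 0.665 over 18 alternatives).

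The antisense transcripts HOXC13-AS and HOXA11-AS fell with R1881 in both lines, but the HOXA11-AS libraries overlapped in C4-2. There HOXA11-AS had 1.84, 1.84 and 0 CPM with vehicle and 0.55, 0.455 and 0.615 with R1881. In LNCaP it went from 3.2, 2.73 and 2.33 to 0.77, 1.08 and 0.462 CPM. HOXC13-AS went from 3.19 ± 0.0851 to 1.03 ± 0.306 CPM in LNCaP (log2FC = -1.64 ± 0.26 SE, adjusted p = 5.92e-05) and from 5.03 ± 1.04 to 1.88 ± 0.184 in C4-2 (log2FC = -1.42 ± 0.25 SE, adjusted p = 4.97e-04). HOXC13-AS overlaps HOXC13, and read pairs on the shared bases could be left uncounted for both. The strand of the other read pairs is not known. No antisense RNA was called higher with R1881. Of the cofactors, MEIS1 rose in LNCaP (log2FC = 1.83 ± 0.13 SE, adjusted p = 2.70e-09). ZBTB16, a transcription factor that regulates HOX expression in limb development and is induced by androgen, rose in both lines, by 2.20 on the log2 scale in LNCaP and 2.07 in C4-2.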

How the data were processed

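RNA-seq was poly(A)-selected and paired-end. Per the labels and the study's methods, reads were trimmed with Trim Galore, aligned with STAR to GRCh38 and counted by the authors with featureCounts (1.5.0-p1, per the file headers) over Ensembl genes, without strand; fragments overlapping several genes were not counted. The deposited values are raw counts of read pairs per gene, 1 file per library. No normalised file was used. From these counts, library sizes were scaled by TMM, and CPM and RPKM were computed with those sizes and the annotated exonic length. Genes were kept with filterByExpr (minimum count 10, minimum total 15). Differences were tested with edgeR's quasi-likelihood test (4.0.16, R 4.3.3) and Benjamini-Hochberg adjustment over all genes tested, within a line on its 9 libraries and between lines on all 18; SE is that of the log2FC. A call needs an adjusted p under 0.05 and 2-fold. Counting intervals are exact (95%) and cover counting error only, and a count of 0 allows 3 counts over a group. DESeq2 (1.42.0), other scaling, filters, a replicate block, a GC correction, thinning and leaving out libraries were alternatives. The scripts were tested on simulated data. RefSeq windows were matched by symbol.

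Members and gene lists were chosen with earlier results of these data known. Values per library are given for members called between lines or under dual knockdown, up to 12 per comparison by size of change, and for the 2 with the highest mean RPKM in each cluster. Members called only with R1881 were added after their values were seen, as were some named for a value that misses a limit. Of each list up to 3 genes per comparison are named if called between lines or under dual knockdown. Those named for R1881 were chosen after their values were seen, as was TTLL6. Antisense genes were not taken as members, and some genes, 1 of them in HOXB, are not reported here. The vehicle is given as DMSO in one place of the study's methods and as ethanol in another.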

Additional observations from a re-analysis of the deposited data

Results flagged for a closer look

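HOXA10 responded differently to dual knockdown in the 2 lines, by 1.04 on the log2 scale (C4-2 minus LNCaP, edgeR quasi-likelihood test of the interaction, adjusted p = 0.000128), and all 3 C4-2 knockdown libraries were above the 3 C4-2 siScr R1881 libraries. HOXA10 also differed in its response to R1881, by 0.76 (adjusted p = 0.00136), with a fall in LNCaP and overlapping libraries in C4-2. HOXC4 differed in its response to R1881 by 0.85 (adjusted p = 0.0188), with a larger fall in LNCaP than in C4-2. Groups of 3 were not tested for outlying libraries.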

How the results depend on the processing

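None of the 72 single-member results that were repeated changed sign under any alternative. These were members with an adjusted p under 0.05 or called in an alternative, so a stable sign was likely from the selection. Other members, among them those with the smallest changes, were not repeated. Among ratios of summed levels, 4 with overlapping libraries crossed 1 by TPM. HOXC under dual knockdown in LNCaP went from 1.02 to 0.973, HOXA groups 9 to 13 between lines with vehicle from 1.06 to 0.958, HOXB groups 9 to 13 with R1881 in LNCaP from 1.05 to 0.945 and HOXA groups 1 to 3 with R1881 in LNCaP from 1.01 to 0.906. The last 2 also crossed by total counts (0.939 and 0.898), and the last by unshared exonic length (0.986). Counts thinned to the smallest library (3182604) gave 5 calls between lines with vehicle and 6 with R1881, against 16 and 15, with 11 members tested in place of 25, and HOXA5, though tested, lost its vehicle call. Under dual knockdown in LNCaP, 1 member was called without the filter on low counts, against 0. With the adjusted p alone, 8 members passed under dual knockdown in C4-2, 8 with R1881 in C4-2 and 2 in the difference between lines in the R1881 response, against 2, 4 and 0. The replicate block with the GC trend removed left 3 calls with R1881 in LNCaP, against 6.

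Leaving out 1 library at a time gave 14 to 16 calls between lines with vehicle and 14 to 16 with R1881, 0 to 1 under dual knockdown in LNCaP, 1 to 3 in C4-2, 0 to 1 in the difference in knockdown response, 4 to 7 and 4 to 6 with R1881 in LNCaP and C4-2, and 0 in the difference in R1881 response.

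Replicate numbers are shared by the groups but did not pair the libraries: the correlations of deviations were -0.0735 to 0.0723 within lines and -0.338 to 0.278 between lines. The replicate block gave 16, 15, 0, 2, 1, 6, 4 and 0 calls, as without it. Of 1661 repeats of single-member results, 56 lost and 31 gained a call. A repeat was counted only where the alternative still tested the member. Calls lost because a member was no longer tested, as with thinning, are not among the 56. Such alternatives are also left out of the numbers of alternatives given for single members above. Of the 24 cluster sums, total counts in place of TMM sizes moved 3 by more than 1 SD. TPM moved all 24 and unshared exonic length 16, but TPM has another scale and a shorter length can only raise RPKM. The counts for TPM and unshared length therefore do not measure how stable the sums were. Members under about 1 CPM rest on few reads, and a change in them may have gone undetected.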
